A study of Homo sapiens with 12 samples.

Results

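A set of 10 target genes of the hypoxia-inducible factors (HIF), all outside glycolysis, was described in RNA sequencing of Jurkat cells, a human leukaemic T cell line. The 10 genes were ADM, VEGFA, AK4, BNIP3, BNIP3L, NDRG1, ANKRD37, KDM3A, EGLN1 and EGLN3. They were taken by symbol, and all 10 were found in both deposited tables, among 55514 gene symbols in the first table and 44389 in the second. The genes were chosen by name with their TPM in the doxycycline libraries already seen, so the Dox+ and Dox- values are a description. Model calls on them appear only beside their share over all genes and carry no weight as evidence. The ZNF683 and Mock values were also at hand when the genes were proposed, so p-values between those libraries are no independent test. The 12 libraries fell into 4 groups of 3. The first table holds libraries titled Hobit whose genotype label is doxycycline-induced ZNF683, and libraries labelled Mock. The second holds a Hobit-titled line with doxycycline (Dox+, labelled 1 ug/uL) and without it (Dox-). The protein made from ZNF683 is Hobit, known as a transcription factor of tissue-resident lymphocytes, and the stated purpose was to compare its presence with its absence. All cells were grown in RPMI with fetal calf serum. Whether the Mock cells received doxycycline, which promoter drives ZNF683, whether the line is 1 clone, and the oxygen tension and cell density of the cultures are facts not given in the sources used here. Values are TPM, a transcript abundance normalized for length and library total. Each group has n = 3 libraries, whose values are given in the order of their numbers. The labels do not tell whether libraries 1 to 3 of a group are separate cultures, so the scatter behind each p-value may be technical. In the doxycycline table as deposited, each p-value and SE follows a variance trend over all genes, not the gene's own scatter.

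HIF is a pair of proteins, an oxygen-labile alpha subunit such as HIF1A or EPAS1 and the stable partner ARNT. With oxygen present, prolyl hydroxylases of the EGLN family mark the alpha subunit, the VHL ubiquitin ligase binds the mark, and the protein is degraded. Without it the pair binds hypoxia response elements and raises genes for glycolysis, blood vessel growth, mitochondrial turnover and its own hydroxylases. The control acts mainly on the alpha protein, so the HIF1A transcript is a poor guide to activity. In T cells the pathway is known to respond to antigen receptor signals as well as to low oxygen.

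RefSeq promoter windows (GRCh38.p14, 250 bases before to 50 after an annotated start) were matched by symbol for 7 of the 10 genes. The core of the hypoxia response element was searched as ACGTG or GCGTG on both strands. A match is a description of letters and not a bound site. Of the 7 genes, 6 had at least 1 match in at least 1 window, and 10 of their 11 windows held one, against 48.4% of all 35116 windows of the same length. BNIP3 had 6 matches, a number reached or passed by 0.923% of all windows. ANKRD37 and the first AK4 window each had 3, as did windows 2 and 3 of the 4 AK4 windows, and 10.1% of all windows had 3 or more. ADM, EGLN1, the fourth AK4 window and both KDM3A windows had 1, and EGLN3 had none. In BNIP3, ANKRD37 and the first and second AK4 windows, 2 of the matches overlap on opposite strands as the palindrome CACGTG, the letters of an E-box, which 7.26% of all windows hold. The windows are rich in G and C (65.0% in ADM and 80.7% in BNIP3, against a median of 58.7% over all windows), and the search was not corrected for that. Both KDM3A windows hold the same match, since they overlap. Sequences are printed 5′ to 3′ on the gene's strand, with the matches in capitals, for ADM, AK4 and BNIP3, whose Dox+ and Dox- libraries did not overlap as deposited, for ANKRD37, whose Dox+ libraries lay close together, and for EGLN3, which had no match. For the first AK4 start (chr1:65147302-65147548, plus strand), BNIP3 (chr10:131982014-131982173, minus strand) and EGLN3 (chr14:33951082-33951324, minus strand) they are the bases before the start that lie in no exon of GENCODE 29. For ADM (chr11:10304959-10304988, plus strand) and ANKRD37 (chr4:185396676-185396705, plus strand) all 250 bases before the RefSeq start lie in GENCODE exons, counted over any gene and either strand. For these 2 genes 30 bases around the matches are shown.
ADM: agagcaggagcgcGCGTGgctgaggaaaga
AK4: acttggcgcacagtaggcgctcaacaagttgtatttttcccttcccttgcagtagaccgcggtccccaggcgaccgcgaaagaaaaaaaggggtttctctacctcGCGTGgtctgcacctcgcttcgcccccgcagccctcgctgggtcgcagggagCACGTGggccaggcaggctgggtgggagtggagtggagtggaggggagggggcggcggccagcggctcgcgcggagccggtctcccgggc
BNIP3: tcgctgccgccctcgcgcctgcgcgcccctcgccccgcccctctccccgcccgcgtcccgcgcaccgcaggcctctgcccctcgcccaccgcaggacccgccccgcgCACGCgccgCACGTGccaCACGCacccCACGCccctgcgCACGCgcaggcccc
ANKRD37: ctcCACGTGccagtgtttgtgtACGTGcgg
EGLN3: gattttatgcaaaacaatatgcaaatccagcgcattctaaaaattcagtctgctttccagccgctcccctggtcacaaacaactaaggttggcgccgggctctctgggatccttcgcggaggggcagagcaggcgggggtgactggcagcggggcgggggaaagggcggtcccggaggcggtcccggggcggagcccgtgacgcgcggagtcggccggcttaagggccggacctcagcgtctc
The ADM match begins 101 bases before the start. The BNIP3 matches begin between 143 and 104 bases before it, and those of ANKRD37 between 162 and 143 bases before it.

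**Figure D1:**
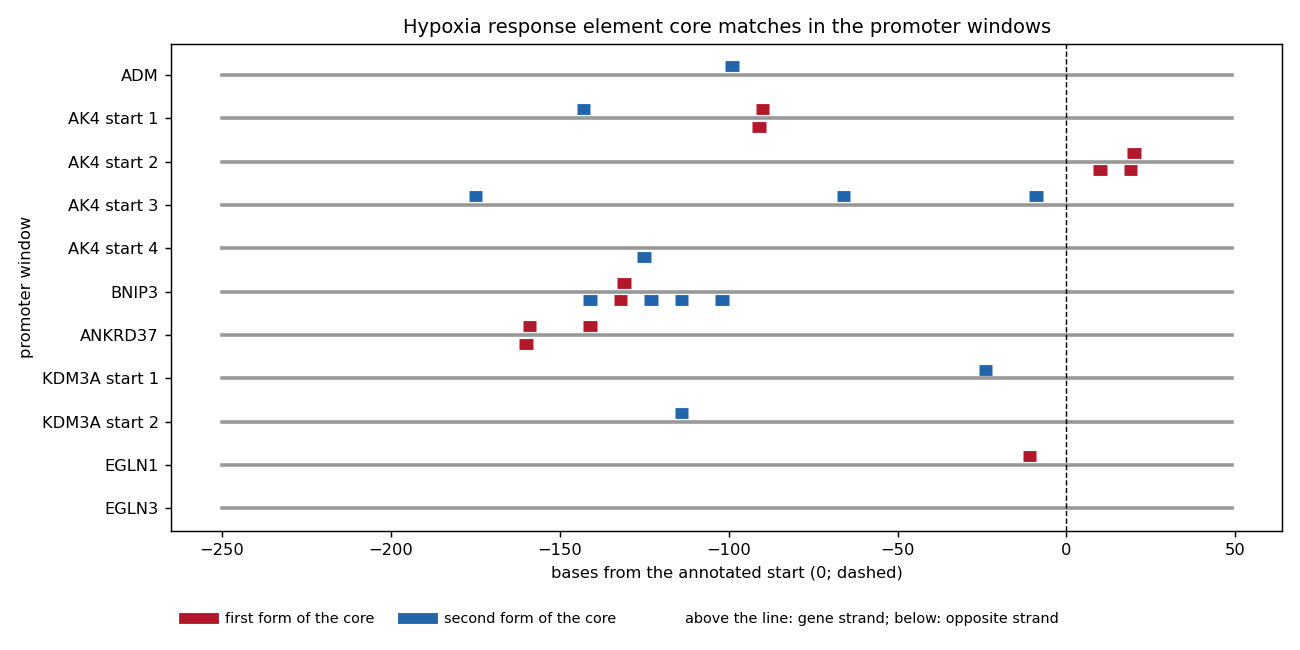
Matches to the hypoxia response element core in 11 promoter windows of 7 genes, by distance in bases from the annotated start (dashed line at 0). Red bars are the form ACGTG and blue bars the form GCGTG, above the line on the gene's strand and below it on the other; BNIP3 holds 6 matches and EGLN3 none.

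Several facts of the libraries bear on these genes. The ZNF683 transcript ranged from 1.04 to 1.76 TPM under its own label and from 0.681 to 1.59 TPM under Mock, with overlap. In the second table the ranges were 0.453 to 0.774 (Dox+) and 0.115 to 0.451 TPM (Dox-), so the transcript is a weak check of the labels and each direction is between libraries as labelled. A single transcript, AL135790.1, took 50.7% of all TPM in Dox- library 1, the other 5 of that table lying between 6.65% and 12.8%, which lowers every other value of that library. Values of the doxycycline table are therefore also given after median-of-ratios scaling, which divides a library by the median ratio of its genes to their geometric mean, and are then called scaled TPM. The median log2 change over all genes tested, Dox+ against Dox-, was 0.32 as deposited and 0.13 scaled. The heat shock gene HSPA6 reached 637 TPM in Dox- library 2 and no other library of that table passed 0.351 TPM. It also separated the first table (0.399 to 0.618 TPM under ZNF683, 4.06 to 6.85 TPM under Mock). In that direction 8.51% of all genes tested there lay apart. HSPA6 was named for its library values and averaged 1 TPM or more there only through Mock, so no test is read from it. All 10 T cell markers checked were at 1 TPM or more in all 12 libraries, summing to 4263 to 4610 TPM under ZNF683, 3998 to 4603 under Mock, 3659 to 3942 in Dox+ and 1488 to 3238 in Dox-. Of 10 markers of other blood and tissue cells, 1 or 2 reached 1 TPM in every library of a group, and their sums lay between 37.0 and 112 TPM. Depth is unknown, since TPM keeps no record of read number.

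Among the 10 genes the mitophagy receptors were the most abundant. Over the 6 libraries of the first table BNIP3L averaged 172 TPM and BNIP3 81.3 TPM. KDM3A (21.9 TPM), ANKRD37 (16.5 TPM), NDRG1 (10.7 TPM), AK4 (7.69 TPM), EGLN1 (5.61 TPM) and EGLN3 (3.05 TPM) followed. The 2 secreted factors were the lowest, ADM at 1.29 TPM and VEGFA at 0.597 TPM. The ranges of neighbours in this order overlapped for KDM3A with ANKRD37, ANKRD37 with NDRG1, NDRG1 with AK4, and AK4 with EGLN1, so the order within those pairs is inside the spread of the libraries.

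**Figure D2:**
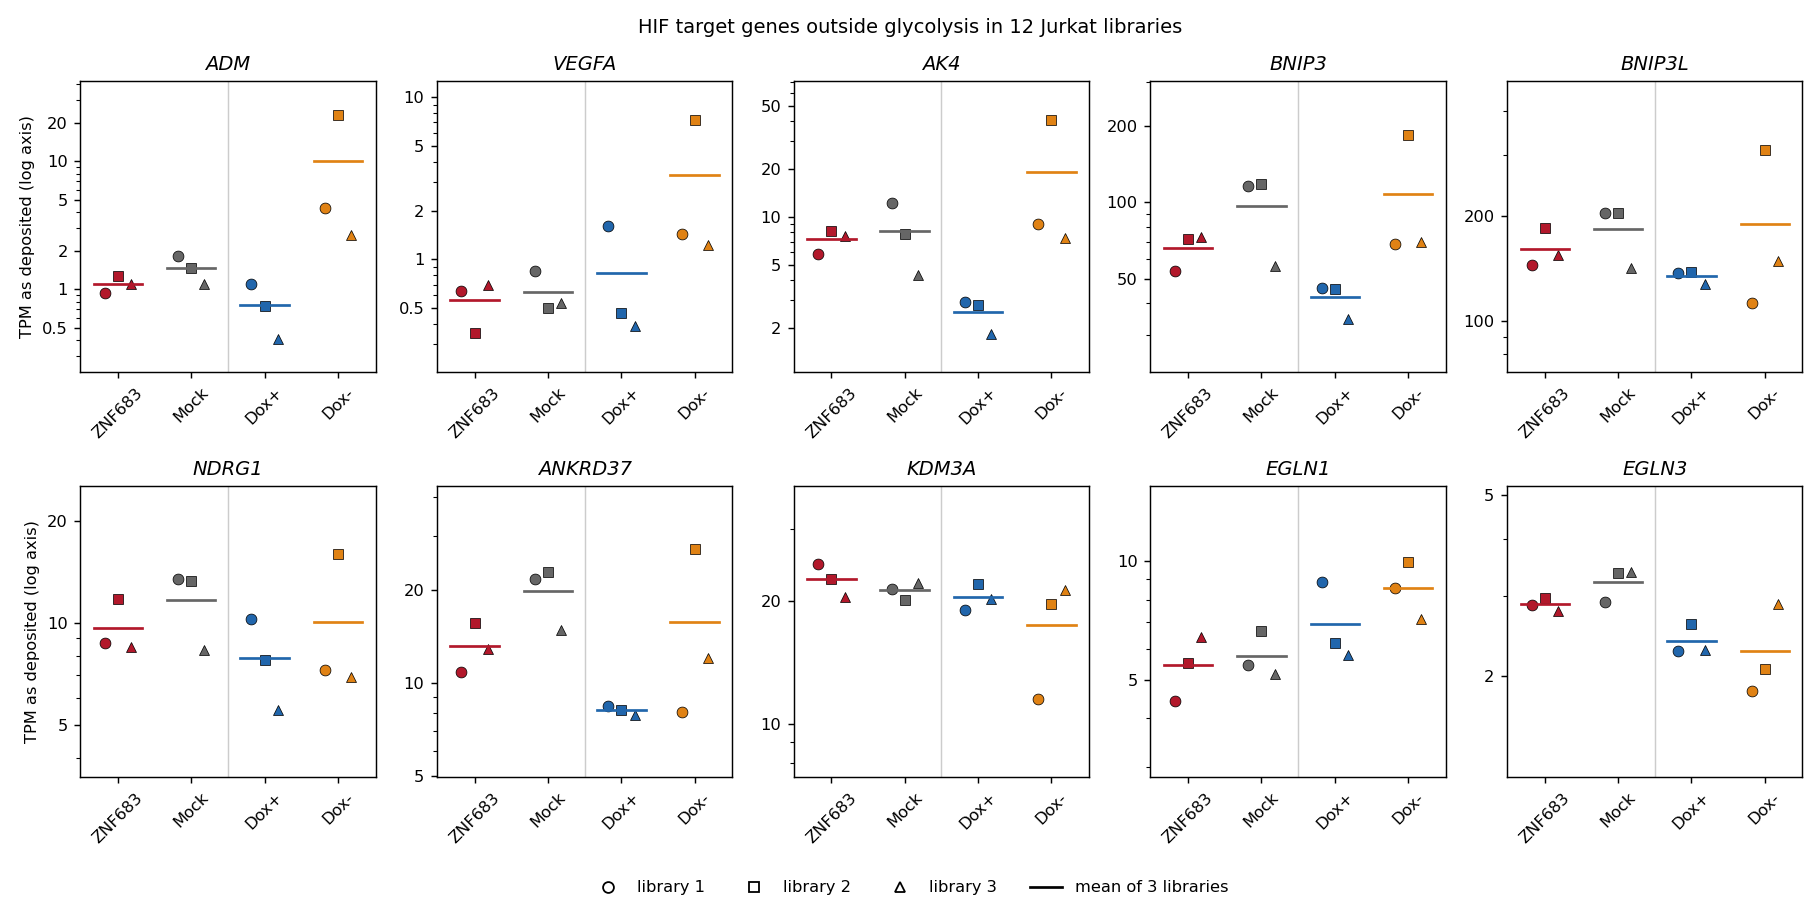
TPM as deposited (log axis) of the 10 genes in each of the 12 libraries, with symbols for libraries 1 to 3 of a group and a bar at the group mean. The grey line parts the 2 tables, which were normalized apart; Dox- library 2 is the highest of its table in 8 of the 10 genes.

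In the doxycycline table ADM, AK4 and BNIP3 were lower in every Dox+ library than in every Dox- library. In the limma fit over all genes, which is no independent test of genes chosen on these values, 2 of the 10 (ADM and AK4) were called lower as deposited, where 0.271% of all genes tested were called lower and 0.396% in either direction. Scaled, none of the 10 was called, against 0.0% lower and 0.0066% in either direction. Groups lay apart in the lower direction for 3 of the 10 as deposited and 5 scaled, where 0.891% and 3.72% of all genes did so. None of the 10 lay apart in the higher direction, against 7.91% of all genes as deposited and 9.34% scaled. The genes were chosen with this contrast known, and nothing is read from these counts. In bulk RNA fewer expressing cells and less RNA per cell cannot be told apart. All 10 passed the filter on low values, but ADM and VEGFA did so through their Dox- libraries, with Dox+ means of 0.757 and 0.820 TPM, so their place among the genes fitted depends on the difference itself.

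Of the secreted factors, ADM encodes adrenomedullin, a vasodilator peptide (chromosome 11, 10304680 to 10307397 in GENCODE 29 on GRCh38, as for the positions below). It stood at 1.11, 0.747 and 0.413 TPM in Dox+ libraries 1 to 3 and at 4.31, 23.1 and 2.67 TPM in Dox- libraries 1 to 3. Scaled, the Dox- libraries held 10.9, 27.9 and 3.34 times the Dox+ mean. All 3 Dox- libraries were thus above the Dox+ range, by amounts that differed several-fold among themselves. The fitted log2 change was -2.16 ± 0.40 (SE) as deposited and ranged from -3.02 to -1.35 over the alternatives, the smallest without Dox- library 2. That SE comes from the trend over all genes and does not measure the spread of the ADM libraries. In the scaled fit the SE was 0.60. VEGFA, the angiogenic growth factor (chromosome 6, 43770184 to 43786487), measured 1.60, 0.470 and 0.388 TPM in Dox+ and 1.44, 7.23 and 1.23 TPM in Dox-. Dox+ library 1 lay above 2 of the Dox- libraries, so the groups overlapped, and Dox- library 2 was far above the other 5. Without that library the log2 change went from -1.03 to -0.42 as deposited and from -1.13 to -0.67 scaled.

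AK4 encodes an adenylate kinase of the mitochondrial matrix (chromosome 1, 65147549 to 65232145). It stood at 2.93, 2.79 and 1.85 TPM in the Dox+ libraries and at 9.0, 40.7 and 7.33 TPM in the Dox- libraries. The Dox+ libraries lay close together, and the lowest Dox- library held 2.91 times their mean as deposited and 2.74 times scaled. The log2 change was -2.12 ± 0.42 (SE, again from the trend, and 0.52 scaled), and -1.39 without Dox- library 2. Scaled, it was -2.30, and -1.75 without that library.

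BNIP3 and BNIP3L encode related mitophagy receptors of the outer mitochondrial membrane. BNIP3 (chromosome 10, 131966455 to 131982013) measured 46.1, 45.5 and 34.7 TPM in Dox+ and 68.4, 185 and 69.5 TPM in Dox-. Scaled, its Dox- libraries held 3.09, 3.99 and 1.55 times the Dox+ mean. BNIP3L, on chromosome 8, measured 137, 138 and 128 TPM in Dox+ and 112, 310 and 148 TPM in Dox-. As deposited Dox- library 1 was the lowest of the 6, and scaled it was 1.58 times the Dox+ mean, with Dox- library 3 just above the Dox+ range (126 against 120 to 123 scaled TPM). The BNIP3L change of -0.36 as deposited turned to 0.06 without Dox- library 2, while BNIP3 went from -1.18 to -0.71. Scaled, the sign of BNIP3L did not turn. It went from -0.59 to -0.36 without that library, and BNIP3 from -1.40 to -1.12.

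ANKRD37 encodes a small ankyrin repeat protein (chromosome 4, 185396021 to 185400628). Its Dox+ libraries were nearly level at 8.39, 8.19 and 7.88 TPM, against 8.05, 27.2 and 12.05 TPM without doxycycline. The groups overlapped through Dox- library 1 as deposited and not when scaled, where the Dox- libraries held 1.87, 3.01 and 1.38 times the Dox+ mean. NDRG1, a stress-responsive gene on chromosome 8, measured 10.3, 7.79 and 5.54 TPM in Dox+ and 7.26, 16.0 and 6.92 TPM in Dox-. Its groups overlapped under both scalings, with Dox- library 3 inside the Dox+ range. KDM3A, a histone demethylase gene (chromosome 2, 86440647 to 86492716), measured 19.0, 22.0 and 20.2 TPM in Dox+ and 11.5, 19.7 and 21.3 TPM in Dox-. Scaled, its 6 libraries lay between 16.1 and 19.7 with no separation, and its log2 change was 0.25 as deposited and 0.04 scaled, with the sign turned once AL135790.1 was left out (-0.03).

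The hydroxylase genes form the feedback arm of the pathway. EGLN1 (chromosome 1, 231363751 to 231425044) measured 8.86, 6.21 and 5.79 TPM in Dox+ and 8.54, 9.95 and 7.12 TPM in Dox-, and the groups overlapped. Scaled, Dox- library 1 was its highest at 14.7, not library 2 at 8.13. EGLN3 (chromosome 14, 33924231 to 34462774) measured 2.27, 2.61 and 2.29 TPM in Dox+ and 1.85, 2.07 and 2.88 TPM in Dox-, also overlapping. Its log2 change was 0.06 as deposited and -0.10 scaled. The 10 genes thus spanned scaled log2 changes from -2.30 in ADM and AK4 to 0.04 in KDM3A, with a median of -0.75, beside 0.13 over all genes tested.

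The Dox- libraries were not alike. Scaled, 7 of the 10 genes had the order library 2, then library 1, then library 3. Dox- library 1 was above every Dox+ library in 10 of 10 genes, library 2 in 8 and library 3 in 6. For KDM3A the margin of library 1 was narrow, at 19.72 against a Dox+ maximum of 19.62 scaled TPM. Library 3 was the lowest of the Dox- libraries in 8 genes. The share of all genes with such orders was not computed, so these counts are not read as a trait of the 10 genes. As deposited library 1 was above every Dox+ library in only 3 genes, so its place depends on the scaling. The part of culture state or handling in these differences was not tested.

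**Figure D3:**
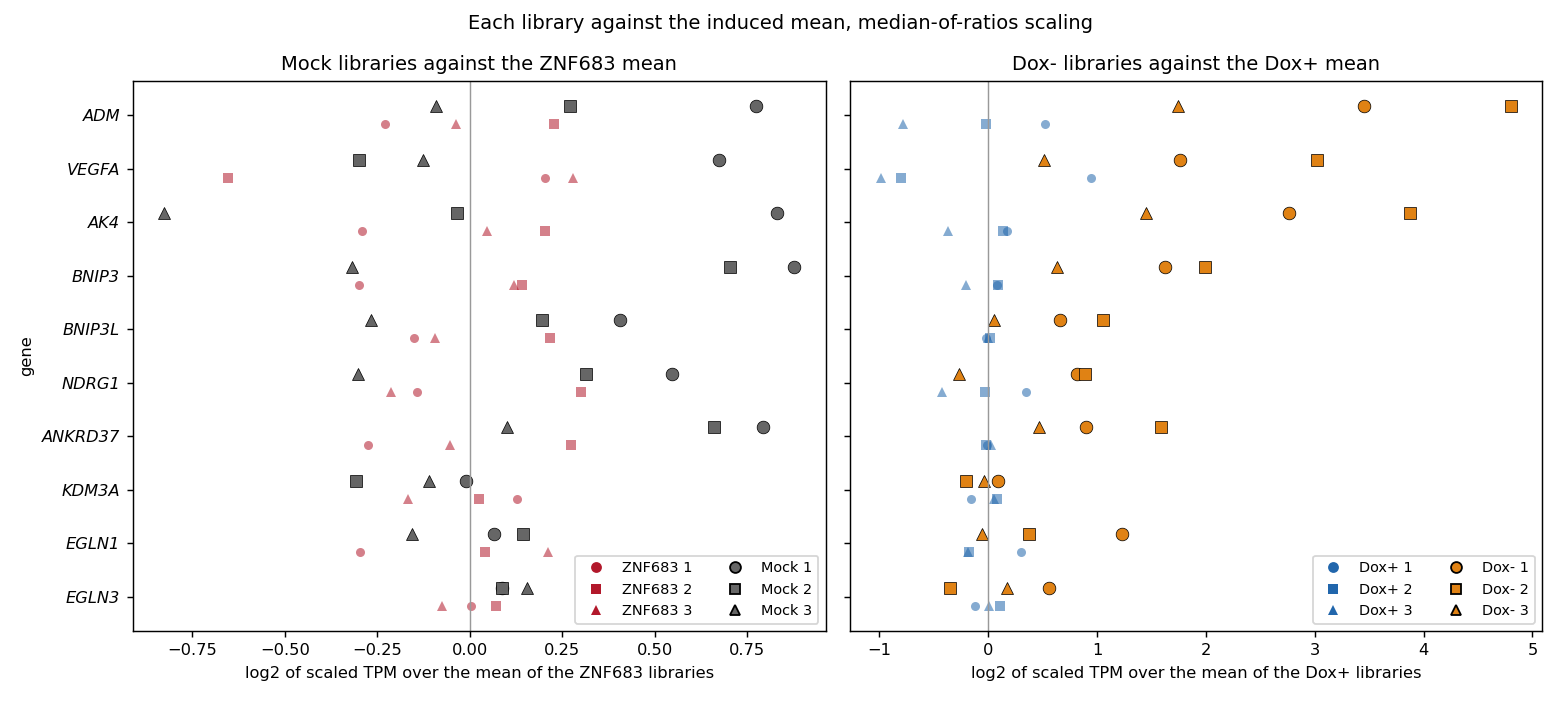
Log2 of scaled TPM over the mean of the induced group for each gene, with ZNF683 and Mock libraries at the left and Dox+ and Dox- libraries at the right. The axes differ in range; Dox- library 2 reaches 27.9 times the Dox+ mean for ADM, whereas the highest Mock library reaches 1.84 times the ZNF683 mean, for BNIP3.

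Between the libraries labelled ZNF683 and Mock, none of the 9 genes tested passed the limma threshold (adjusted p under 0.05), where 0.0301% of the 16588 genes tested did (0.0121% lower). Scaled the count was also 0, against 0.0422% of all genes (0.0181% lower). VEGFA averaged less than 1 TPM and was left untested, at 0.642, 0.351 and 0.694 against 0.854, 0.502 and 0.542 TPM. At an unadjusted p under 0.05 there was 1 gene, ANKRD37, as for 13.0% of all genes tested (14.5% scaled). The log2 changes of 8 of the 9 were negative, with a median of -0.17 beside 0.03 over all genes tested. The groups overlapped in all 9, where 8.51% of genes had all ZNF683 libraries under all Mock libraries and 8.71% all above. With scaling EGLN3 alone lay apart (2.77 to 3.06 against 3.09 to 3.24 scaled TPM), beside 7.24% of genes lower and 11.8% higher.

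ANKRD37 stood at 10.8, 15.6 and 12.9 TPM under ZNF683 and 21.7, 22.9 and 14.9 TPM under Mock, or 13.1 ± 2.43 and 19.8 ± 4.32 TPM (mean ± SD). Only ZNF683 library 2 and Mock library 3 crossed (log2 change -0.55 ± 0.19, SE; limma adjusted p = 0.335, and 0.0892 at its lowest over the alternatives). BNIP3 stood at 53.3, 71.6 and 73.0 TPM against 116, 118 and 55.9 TPM, or 66.0 ± 11.0 and 96.6 ± 35.3 TPM (log2 change -0.48 ± 0.28, limma adjusted p = 0.46). Mock libraries 1 and 2 were above every ZNF683 library, and Mock library 3 was within their range. Without Mock library 3 the BNIP3 change was -0.83 (limma adjusted p = 0.0822).

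Mock library 3 held the same low place in other genes. It was the lowest Mock library in 7 of the 10, whereas Mock libraries 1 and 2 each lay above every ZNF683 library in 7. Here too the share over all genes was not computed. For BNIP3L the values were 145, 185 and 154 against 204, 204 and 142 TPM. NDRG1 stood at 8.74, 11.8 and 8.51 against 13.5, 13.3 and 8.30 TPM. In both, Mock libraries 1 and 2 were the highest and Mock library 3 the lowest of the 6. AK4 was widely scattered, with 5.89, 8.20 and 7.62 TPM in the ZNF683 libraries inside the Mock values of 12.3, 7.79 and 4.31 TPM, and the sign of its change of -0.06 turned without Mock library 1 (0.26). ADM stood at 0.945, 1.28 and 1.10 against 1.81, 1.48 and 1.10 TPM. The remaining genes were nearly level. KDM3A stood at 24.6, 22.7 and 20.5 against 21.5, 20.1 and 22.1 TPM (log2 change 0.08 ± 0.11), EGLN1 at 4.42, 5.53 and 6.44 against 5.45, 6.64 and 5.17 TPM, and EGLN3 at 2.87, 2.98 and 2.78 against 2.92, 3.37 and 3.38 TPM. Whether the ZNF683 and Dox+ effects on these genes differ was not tested, because the doxycycline values chose the genes.

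Of 46 further HIF targets outside glycolysis, chosen with earlier results of these data known, 33 were tested in the first comparison and none passed (3 at an unadjusted p under 0.05, where 13.0% of all genes were; 16 log2 changes positive and 17 negative, and 18 and 15 scaled). CITED2, which encodes a competitor of HIF for its coactivators, stood at 11.6, 17.1 and 16.5 TPM under ZNF683 and 9.54, 8.28 and 9.83 TPM under Mock (log2 change 0.64 ± 0.16, limma adjusted p = 0.279). PPFIA4, a liprin gene, had the opposite order at 1.65, 1.86 and 1.93 against 2.65, 3.23 and 3.59 TPM (-0.56 ± 0.14, limma adjusted p = 0.279). The groups lay apart for both, and for SPAG4, a nuclear envelope gene, at 1.65, 2.40 and 2.28 against 3.10, 3.98 and 3.10 TPM. These genes are named for their small p. Of the 33, 3 lay apart in the higher direction and 4 in the lower, where 8.71% and 8.51% of all genes did. P4HA1, a collagen prolyl hydroxylase subunit, averaged 40.8 against 53.3 TPM, with Mock library 3 at 40.7 TPM, and HIGD1A, a mitochondrial inner membrane gene, averaged 288 against 246 TPM.

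With doxycycline 32 of these 46 were tested and none passed as deposited or scaled (4 and 9 at an unadjusted p under 0.05, where 6.34% and 3.04% of all genes did). As deposited 16 log2 changes were positive and 16 negative, with a median of -0.02, and 6 genes had every Dox+ library under every Dox- library, as did 0.891% of all genes. Scaled, 12 were positive and 20 negative, with a median of -0.23, and 9 genes lay apart in that direction, as did 3.72% of all genes. BHLHE40, a circadian and hypoxic repressor gene, measured 1.52, 1.40 and 0.959 TPM in Dox+ and 3.32, 17.3 and 1.66 TPM in Dox- (log2 change -1.38 ± 0.40, limma adjusted p = 0.118). PPFIA4 stood at 1.26, 1.04 and 0.696 against 1.42, 8.58 and 1.85 TPM. Both had the highest value in Dox- library 2, as the 10 genes mostly did. STC2, a secreted glycoprotein gene, was also highest there as deposited. Scaled, its Dox- values were nearly level at 10.7, 9.34 and 9.07, against 5.21, 3.65 and 2.38 with doxycycline (limma adjusted p = 0.607 as deposited and 0.688 scaled). MIR210HG, the host gene of a hypoxic microRNA, was highest in Dox- library 1 at 10.0 scaled TPM, and the lipoprotein receptor gene VLDLR stood at 27.4, 28.0 and 20.7 scaled TPM without doxycycline and 17.5, 10.5 and 8.55 with it.

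The regulators of the pathway gave no call in either comparison (18 of 20 genes tested in each; 2 and 1 at an unadjusted p under 0.05, where 13.0% and 6.34% of all genes were). HIF1A itself stood at 75.5, 68.5 and 62.1 TPM under ZNF683 and 58.4, 70.8 and 70.6 TPM under Mock, which overlap. Scaled, it stood at 57.1, 60.5 and 59.7 with doxycycline and 59.9, 46.8 and 49.7 without. ARNT stood at 31.5 to 36.6 scaled TPM with doxycycline and 28.9 to 31.7 without, and VHL at 26.7 to 31.7 and 27.5 to 32.1. Scaled, these 3 transcripts thus stayed within a narrow range in libraries where the ADM transcript spanned 0.393 to 18.9 scaled TPM. This is read from scaled values only, since every value of Dox- library 1 is lowered as deposited. EPAS1, the other alpha subunit gene, was low, at 5.25, 3.16 and 3.06 TPM under ZNF683 and 2.53, 2.0 and 2.32 TPM under Mock (log2 change 0.53 ± 0.19, limma adjusted p = 0.341). SIAH1, a ubiquitin ligase gene that acts on hydroxylases of this family, also lay apart at 36.9, 42.4 and 39.2 against 29.6, 28.6 and 33.3 TPM (limma adjusted p = 0.298). Of the 18 regulators, 2 lay apart in the higher direction and 1 in the lower between ZNF683 and Mock, where 8.71% and 8.51% of all genes did. Between Dox+ and Dox- the counts were 2 and 0 as deposited, where 7.91% and 0.891% of all genes did. Scaled, they were 0 and 1, where 9.34% and 3.72% did.

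The regulators with the smallest p in the doxycycline comparison were HSP90AA1, EGLN2, CUL2, HIF1AN and CREBBP, and in each Dox- library 2 lay outside the other 5 when scaled. They are named for their small p in these same libraries. The share of all genes with library 2 outside the rest was not computed, so its place is not read as a trait of the regulators. EGLN2, another prolyl hydroxylase of the family, measured 21.7 scaled TPM there, against 53.7 to 73.6. HIF1AN, the asparagine hydroxylase that blocks coactivator binding, stood at 16.9 against 40.8 to 54.9, and CUL2, the scaffold of the VHL ligase, at 15.3 against 45.7 to 58.5. Dox- library 1 was the lowest of the remaining 5 for EGLN2 (53.7) and near the lowest for HIF1AN (41.6). Over the 18 regulators the mean in Dox- library 2 was -0.01 on the scaled, centred log2 scale, a mean that HSP90AA1 raises. The median there was -0.06, with the other 5 libraries between -0.04 and 0.16. VHL was level, and EGLN1 was above its Dox+ range in Dox- library 2. HSP90AA1, a chaperone of the alpha subunit, reached 5181 scaled TPM in Dox- library 2, the other 5 lying between 378 and 482. None of these 4 passed the test (limma adjusted p = 0.661 to 0.737), and the coactivator gene CREBBP, at 3.81, 8.06 and 5.01 scaled TPM without doxycycline and 2.80, 3.53 and 2.54 with it, did not either.

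The genes whose profile over the 6 doxycycline libraries was nearest to the mean of the 10 were sought among 9486 other genes averaging 5 TPM or more, by the root mean square difference of centred log2(TPM + 1). They were PFKFB4 (0.12), GBE1 (0.13), PDK1 (0.13), EFNA3 (0.16) and P4HA1 (0.16), against a median of 0.76 over all genes compared. The same 5 genes came first with scaling. PFKFB4 encodes a regulator of glycolysis, GBE1 the glycogen branching enzyme, PDK1 a kinase of pyruvate dehydrogenase and EFNA3 an ephrin ligand. PDK1 stood at 18.2, 17.4 and 16.1 scaled TPM with doxycycline and 42.7, 39.5 and 24.0 without. For ADM alone the nearest were KLF15 (0.37) and ALDOC (0.43), with RN7SL718P, SAP30-DT and RNU6-125P between 0.55 and 0.61, against a median of 1.58. Outside Dox- library 2, KLF15 stood at 0.820 to 3.93 TPM, RNU6-125P at 1.26 to 3.26 and RN7SL718P at 2.12 to 5.49. These genes passed the filter of 5 TPM only through that library, where ADM was also highest. Their likeness to ADM is thus partly set by the filter. All profiles come from the same 6 libraries, so a library that stands apart shapes every one of them, and likeness here is a description.

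Averaged over the genes tested, the 10 genes stood at 0.64, 0.95 and -0.14 in Dox- libraries 1 to 3 and at -0.35, -0.48 and -0.62 in Dox+ libraries 1 to 3 (scaled, log2, each gene centred on its 6 libraries). The 21 glycolytic HIF targets stood at 0.23, 0.67 and -0.04 and at -0.32, -0.32 and -0.23, the same order of libraries without doxycycline. Heat shock and integrated stress genes (12) stood at -0.33, 2.51 and -0.31 in the Dox- libraries and at -0.49, -0.74 and -0.64 in the Dox+ libraries. All 3 Dox- libraries were thus above all Dox+ libraries for the stress genes too when scaled, with Dox- library 2 far above the rest. As deposited Dox- library 1 was the lowest of the 6 for the stress genes (-0.98) and stood at -0.06 for the 10 genes, so its place in both lists depends on the scaling. T cell markers were low in Dox- library 2 (-1.23, against 0.06 and 0.10 in Dox- libraries 1 and 3). The part of the stress genes and of the T cell markers in the HIF target values was not tested.

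**Figure D4:**
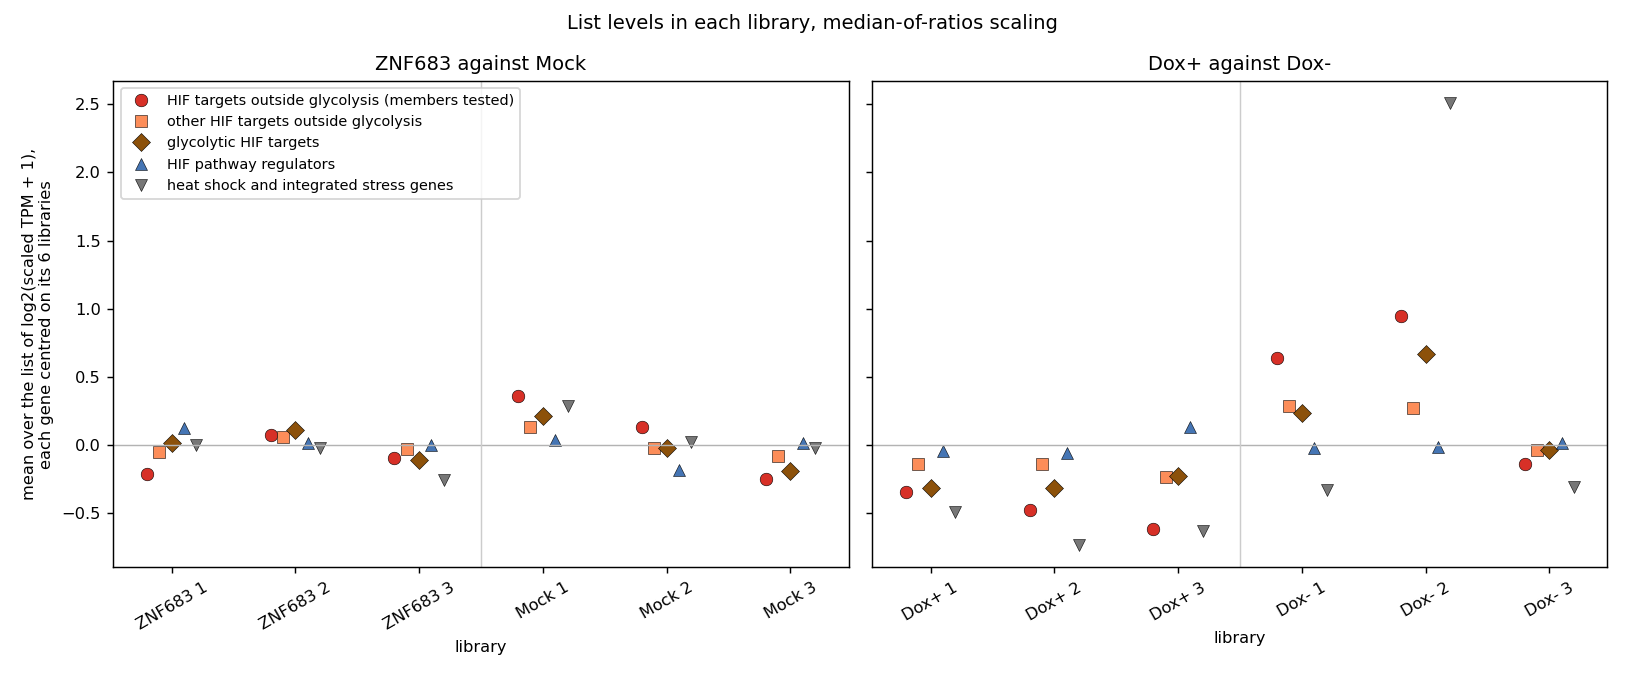
Mean level of 5 gene lists in each library (log2 of scaled TPM + 1, each gene centred on the 6 libraries of its table). The HIF targets outside glycolysis are above 0 in Dox- libraries 1 and 2 (0.64 and 0.95) in Mock libraries 1 and 2 (0.36 and 0.13) and slightly in ZNF683 library 2 (0.07), and the stress genes reach 2.51 in Dox- library 2.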

How the data were processed

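Per the labels' protocols, RNA came from a Qiagen RNeasy extraction and went into a NEBNext low-input preparation. The authors deposited TPM per gene symbol in 2 tables, which were normalized apart. Tools listed in the submitters' processing notes are DESeq2 1.22.2 and kallisto 0.46.0, with roles and the genome build not given in the sources used here. Columns were tied to samples by their titles.

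The 2 tables were tested apart. A gene entered the fit when its 6 libraries averaged 1 TPM or more (16588 and 15148 genes). The test was limma (version 3.58.1, run in R version 4.3.3) of log2(TPM + 1), with a mean-variance trend, two-sided, Benjamini-Hochberg adjusted over all genes tested, at a threshold of 0.05. Fold changes on this scale understate those of low genes. In the doxycycline table the prior degrees of freedom were unlimited, so the test used the trend's variance, not each gene's. With 3 libraries against 3 an exact permutation test cannot reach that threshold and none was run. The procedure was run on simulated data with independent noise for each gene and library. That simulation held no shift of a whole library, and nothing is read from it here. The members and lists were chosen with earlier results of these data known. Named genes are the 10 members, the 5 genes of each further list with the smallest p, the core pathway genes and the 5 nearest profiles. Promoter sequences are from RefSeq.

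Alternatives were median-of-ratios scaling, leaving out AL135790.1, other pseudocounts and filters, other variance moderation, a replicate block and leaving out each library.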

Additional observations from a re-analysis of the deposited data

How the results depend on the processing

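For ZNF683 against Mock no HIF target, further target or regulator was called under any alternative run. The number of genes called over the whole table was 5, and 3 with a pseudocount of 0.1, 0 without a filter, 0 at a mean of at least 5 TPM, 8 with robust limma and 0 (without Mock library 2) to 49 (without ZNF683 library 1) with a library left out. For Dox+ against Dox- it was 60, and 1 with median-of-ratios scaling, 0 without AL135790.1, 0 without a filter, 15 at a mean of at least 5 TPM, 23 with robust limma and 0 (without Dox- library 1) to 2788 (without Dox- library 3) with a library left out. Of the 10 genes, 2 were called, and 0 with median-of-ratios scaling, without AL135790.1 or without a filter, and 0 to 2 with a library left out (0 without Dox+ library 2, Dox+ library 3 or Dox- library 1, and 1 without Dox- library 2). Leaving out a Dox- library after median-of-ratios scaling, chosen after seeing the data, gave 0 to 2 genes and 0 of the 10. Without a library 0 to 2 further targets and 0 to 5 regulators were called, all without Dox- library 3. In that setting 2788 of the 15127 genes tested were called, 2754 of them higher, so nothing is read from these counts. The main fit tested 32 further targets and 18 regulators. The cause was not tested. In the first table the same replicate numbers did not deviate together (correlation of deviations from -0.25 to 0.07). In the doxycycline table they were all positive (0.05 to 0.36), with different numbers from -0.33 to 0.20. Not every library correlated best with its own number. The numbers were not taken as pairs in the main fit, and the block was run as an alternative. With the replicate block 0 and 34 genes were called, and with the block and median-of-ratios scaling 12 and 0, with 0 of the 10 in the doxycycline comparison. With a library left out the ZNF683 changes that turned sign were those of AK4 (-0.40 to 0.26) and EGLN1 (-0.18 to 0.052). AK4 stood at 0.062 without ZNF683 replicate 1 and 0.26 without Mock replicate 1, and EGLN1 at 0.052 without ZNF683 replicate 1 and 0.023 without Mock replicate 2. Depth is unknown and sets no computed limit.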

Other observations

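Across the 2 tables, which were normalized apart, AK4 stood at 4.31 to 12.3 TPM in the 6 libraries of the first table, above the 1.85 to 2.93 TPM of the Dox+ libraries and overlapping the 7.33 to 40.7 TPM of the Dox- libraries. ADM in the Dox- libraries, at 2.67 to 23.1 TPM, lay above its 0.945 to 1.81 TPM in the first table. BNIP3 at 34.7 to 46.1 TPM in the Dox+ libraries lay below its 53.3 to 118 TPM in the first table. No test was made between tables.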
